A study of Rattus norvegicus with 3 samples.

Results

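Expression of 41 genes of glucose and lactate transport, glycolysis and the hypoxia response was examined in cultured rat cardiomyocytes. The genes were listed by name, with earlier results of these data known, and 40 of them had at least 1 probe set annotated with that symbol alone, out of 14218 genes on the array with such a probe set. The exception was Pkm, which encodes pyruvate kinase and whose expression was not analysed here. Cardiomyocytes from fetal Wistar rats had been in culture for 48 hours, and each of 3 cultures was then kept for 24 hours in fresh culture medium, in medium conditioned by skeletal myoblasts or in medium conditioned by cardiac fibroblasts. Each medium was represented by 1 array, so the differences carry no error estimate and no test, and no repeat of any condition was analysed here. The values describe these 3 arrays, whose number limits the precision.

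Cells break glucose down to pyruvate through glycolysis, and pyruvate is then either reduced to lactate and exported or oxidised in mitochondria. Hypoxia-inducible factor (HIF) is a transcription factor whose alpha subunits are marked for destruction by oxygen-dependent prolyl hydroxylases. When oxygen is short, HIF raises transcription of glucose transporters, most glycolytic enzymes and the kinases that close the mitochondrial entry of pyruvate. Fetal heart muscle relies more on glycolysis than adult heart muscle, which mainly burns fatty acids. Several of these steps have muscle-type and general forms encoded by separate genes.

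The deposited values are log2 expression centred on the middle array of each probe set, so the middle array reads 0 and the absolute level of a gene is unknown. A log2 difference of 1 is 2-fold. The only technical yardstick was 42 probe sets for control transcripts meant to be added in equal amounts. In myoblast medium minus fresh medium these ranged from -0.01 to 0.66, and the 24 added before labelling (poly-A controls) had a median of 0.34. Fibroblast medium minus fresh medium gave -0.68 to 0.59, with a median of -0.27 for the poly-A controls and 0.40 for the 18 hybridisation controls. Between the conditioned media the largest control difference was 1.02.

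Under myoblast medium, 5 of the 40 genes were at least 2-fold higher than in fresh medium and 1 was at least 2-fold lower. The share of all 14218 genes past the same thresholds was 1.35% on the higher side and 0.844% on the lower side. The higher genes were Mgarp, Stc2, Ankrd37, Hk2 and P4ha1, and the lower gene was Pgam2. The 40 genes had a median difference of 0.37, with 30 above 0 and 10 below 0. The median of all genes was 0, with 5546 (39.0%) above 0, 5719 below 0 and 2953 at exactly 0. None of the 40 was at 0, so the shares above 0 are not directly comparable. The median of 0.37 is close to the 0.34 of the poly-A controls, and of the 20 glycolysis and transport genes above 0, 7 lay beyond the largest control difference. Beyond the largest control difference lay 12 of the 40 genes on the higher side, against 3.19% of all genes, and 1 on the lower side, against 2.29%. Centring the arrays on the poly-A controls, which was added once the values were known, brought the median to 0.02 and left 2 higher genes past 2-fold, Mgarp and Stc2, against 0.535% of all genes. Centring on the hybridisation controls, whose median was 0.10, left 4 higher genes, without P4ha1, against 1.1% of all genes, and a median of 0.27.

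Under fibroblast medium, 4 of the 40 genes were at least 2-fold higher than in fresh medium, against 4.26% of all genes, and 3 were at least 2-fold lower, against 2.6%. The higher genes, Mgarp, P4ha1, Ddit4 and P4ha2, were all listed here as HIF targets. The lower genes, Pgam2, Aldoc and Slc2a1, were all listed under glycolysis and glucose transport. These lists do not separate HIF-dependent genes from others, since HIF also raises glucose transporters and most glycolytic enzymes. The median of the 40 genes was -0.03. Of the 26 glycolysis and transport genes, 17 were below 0 (median -0.11), while 9 of the 14 HIF pathway and target genes were above 0 (median 0.27). Of all genes, 5824 (40.96%) were above 0, 6133 below 0 and 2261 at exactly 0, whereas no member was at 0. More than the largest control difference separated 5 genes on the higher side, against 7.46% of all genes, and 6 on the lower side, against 5.36%. With the arrays centred on the hybridisation controls in the same way, 1 gene (Mgarp) was at least 2-fold higher, against 2.53% of all genes, and Slc2a4, Gpi, Pfkm and Pdk2 joined the lower genes to make 7, against 6.15%, with a median of -0.40. Poly-A centring kept the 4 higher genes (6.82% of all genes), left 2 lower ones (1.62%) with Slc2a1 at -0.79, and gave a median of 0.24.

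Between the conditioned media, 6 of the 40 genes were at least 2-fold higher in myoblast medium, against 2.12% of all genes, and 0 were at least 2-fold lower, against 3.94%. They were Pgam2, Slc2a4, Ankrd37, Slc2a1, Aldoc and Eno3. Of the 26 glycolysis and transport genes, 24 were higher in myoblast than in fibroblast medium, with a median of 0.50. The same held for 44.9% of all genes, with 5593 lower and 2245 at exactly 0. Poly-A controls differed in that direction as well, by a median of 0.58, and the hybridisation controls differed the other way, by -0.28. The same 6 genes were higher by more than the largest control difference, against 2.05% of all genes. Lower by more than its size were 0, against 3.76%. Centring on the poly-A controls left only Pgam2 past 2-fold on the higher side (0.57% of all genes), put Ndrg1, P4ha2 and Ddit4 past it on the lower side (12.9% of all genes), and gave a median of -0.21 over the 40 genes. Centring on the hybridisation controls gave 10 higher genes (4.52% of all genes), 0 lower and a median of 0.68. All 3 comparisons share arrays, so they are not independent of each other.

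**Figure D1:**
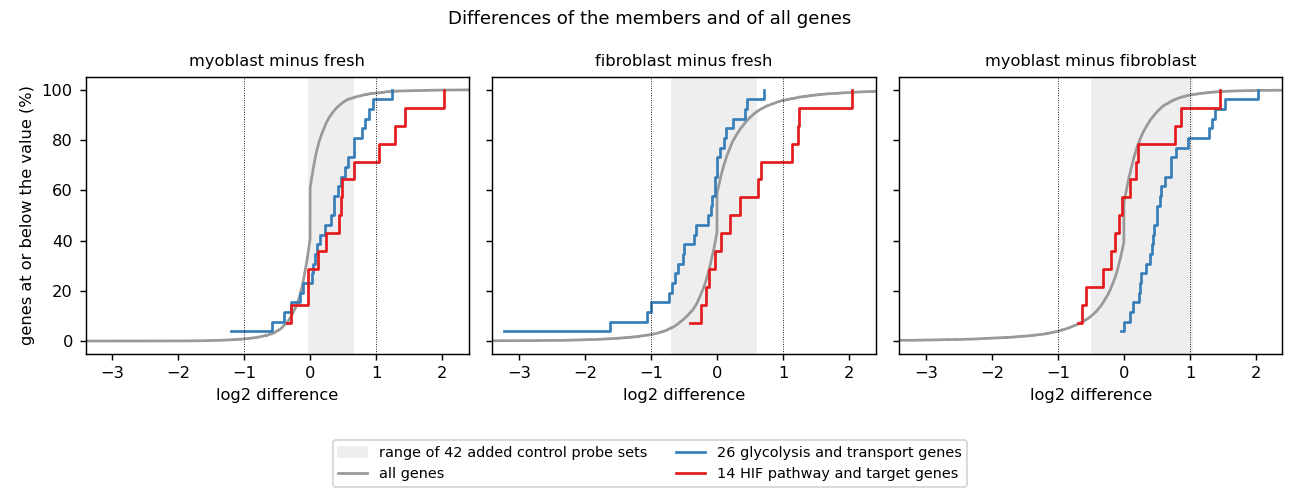
Cumulative percentage of genes (vertical axis) at or below each log2 difference (horizontal axis) in the 3 comparisons, for all genes (grey line), the 26 glycolysis and transport genes (blue) and the 14 HIF pathway and target genes (red). Grey bands span the 42 control probe sets and dotted lines mark 2-fold. The medians of the glycolysis and HIF groups were 0.34 and 0.45 under myoblast medium, and -0.11 and 0.27 under fibroblast medium.

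Glucose enters heart muscle through Slc2a1, the basal transporter, and Slc2a4, the insulin-responsive one. Slc2a1 read 0.00 in fresh medium, 0.31 in myoblast medium and -1.06 in fibroblast medium. Slc2a4, the mean of 2 probe sets, read 0.00, 0.89 and -0.63 in the same order. Both transporters were thus lowest under fibroblast medium and highest under myoblast medium, with 2.59-fold and 2.88-fold between the conditioned media. The probe sets of Slc2a4 had the same order but different sizes, with myoblast minus fresh differences of 1.18 and 0.60.

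Hexokinases trap glucose as glucose 6-phosphate. Hk2, the regulated muscle form, read -0.46 in fresh medium, 0.78 in myoblast medium and 0.00 in fibroblast medium, so that myoblast medium was 2.36-fold above fresh medium. Hk1, the constitutive form, differed by 0.05 under myoblast medium and by -0.50 under fibroblast medium as the mean of 5 probe sets. Gpi, the isomerase that follows, was level between fresh and myoblast medium (0.03) and lower by 0.69 on the log2 scale under fibroblast medium.

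Phosphofructokinase, which commits sugar to glycolysis, has 3 subunit genes, whose differences had unlike signs. Pfkl, the liver-type subunit, read -0.67 in fresh medium, 0.00 in myoblast medium and 0.04 in fibroblast medium. Pfkp, the platelet-type subunit, read -0.04, 0.62 and 0.00. Pfkm, the muscle-type subunit and the mean of 3 probe sets, went the other way, at 0.40, 0.00 and -0.33. Fresh medium was thus the lowest array for Pfkl and Pfkp and the highest for Pfkm. A probe set of Pfkm had no value on any array, and without it the difference between fibroblast and fresh medium was -1.09 in place of -0.73. The bifunctional enzymes that set fructose 2,6-bisphosphate, an activator of phosphofructokinase, differed little, with Pfkfb3 at -0.11 and -0.35 and Pfkfb4 at 0.11 under both media. Aldoa, the muscle aldolase, was nearly level on all arrays (-0.00, 0.14 and 0.00). Aldoc, the brain-type aldolase, read 0.29 in fresh medium, 0.00 in myoblast medium and -1.33 in fibroblast medium, 3.08-fold below fresh medium.

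The steps from triose phosphate to pyruvate held the largest single difference. Pgam2, the muscle-type phosphoglycerate mutase, read 1.20 in fresh medium, 0.00 in myoblast medium and -2.04 in fibroblast medium. It was 2.29-fold lower under myoblast medium and 9.39-fold lower under fibroblast medium than in fresh medium. Pgam1, the general form of the same enzyme, had its lowest value in fresh medium, at -0.43 against 0.10 and 0.00.

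Triose phosphate isomerase (Tpi1), glyceraldehyde phosphate dehydrogenase (Gapdh), phosphoglycerate kinase (Pgk1) and the general enolase (Eno1) all had their highest value in myoblast medium. Their differences from fresh medium were 0.42, 0.23, 0.37 and 0.57, inside the range of the control transcripts. Under fibroblast medium all 4 lay between -0.09 and 0.01 of fresh medium. Eno3, the muscle enolase, read 0.00 in fresh medium, 0.78 in myoblast medium and -0.51 in fibroblast medium, unlike Pgam2, the muscle form of the preceding step.

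Lactate dehydrogenase is built from the Ldha subunit, which favours lactate formation, and the heart-type Ldhb subunit. Ldha was lowest in fresh medium, at -0.24 against 0.23 and 0.00, and Ldhb was highest there, at 0.15 against 0.00 and -0.45. Slc16a3, the lactate exporter of glycolytic cells, read -0.13, 0.71 and 0.00, 1.79-fold above fresh medium in myoblast medium. Slc16a1, a carrier that also takes lactate up, differed by 0.07 and -0.32.

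Pyruvate dehydrogenase kinases switch off the mitochondrial entry of pyruvate. Pdk1, a HIF target, read -0.08 in fresh medium, 0.87 in myoblast medium and -0.11 in fibroblast medium. Its myoblast minus fresh difference of 0.95 lay just under 2-fold and came from probe sets at 1.42 and 0.47. Pdk2, the form most abundant in many tissues, ran opposite at 0.57, 0.00 and -0.43, and its difference of -0.999 under fibroblast medium lay just short of 2-fold. Pdk3 differed by 0.37 and -0.14.

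**Figure D2:**
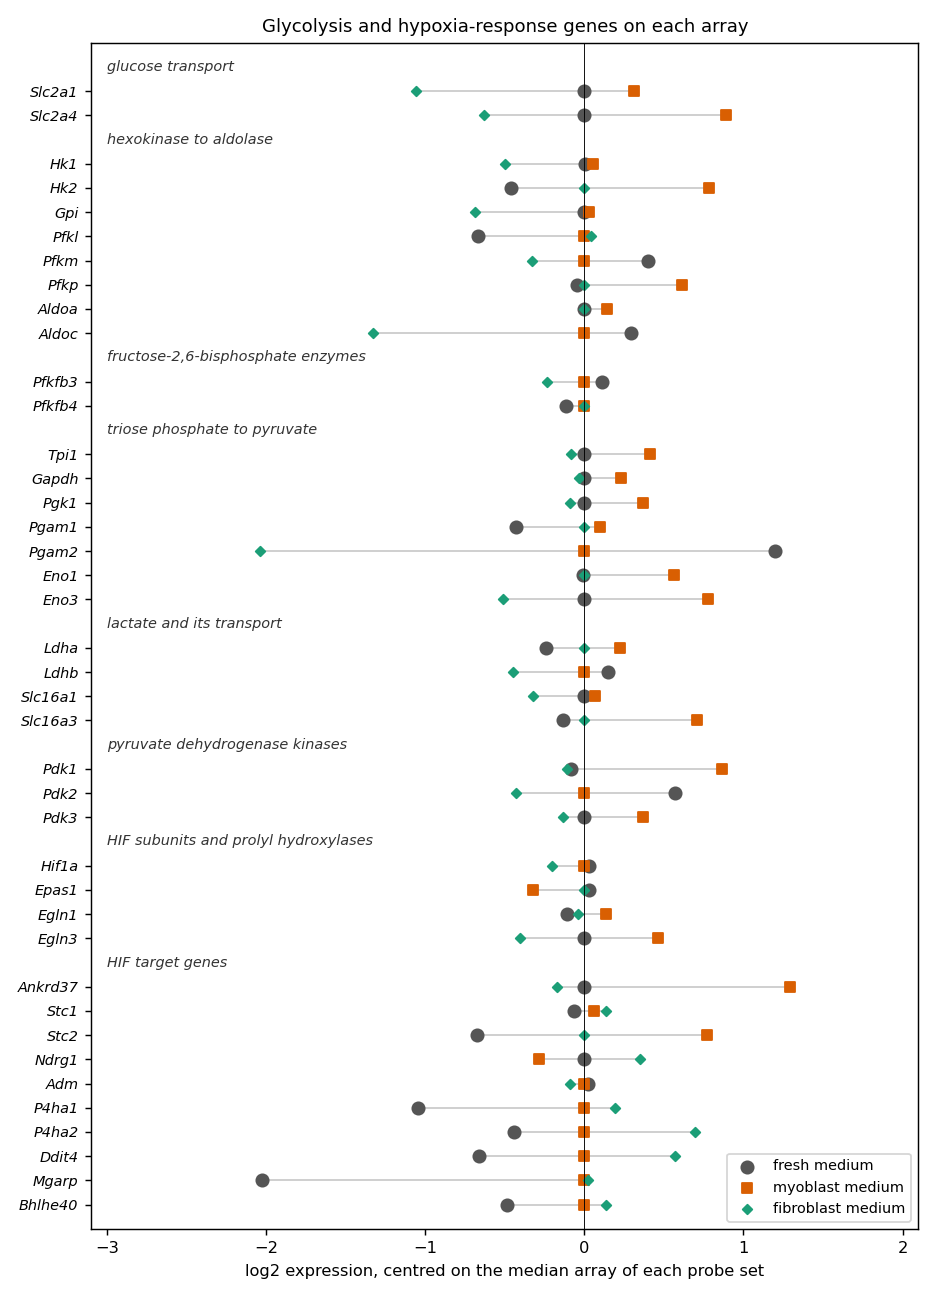
Centred log2 expression (horizontal axis) of the 40 measured genes, ordered by role, on the arrays of fresh medium (grey circles), myoblast medium (orange squares) and fibroblast medium (green diamonds), with 1 array each and a line from the lowest to the highest. Pgam2 spans the widest range, from -2.04 to 1.20, and Mgarp stands out through its fresh-medium value of -2.02.

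Genes that encode alternative forms of an enzyme were compared through their differences from fresh medium, since centring removes their levels within an array. The difference of Pgam2 minus that of Pgam1 was -1.72 on the log2 scale under myoblast medium and -3.66 under fibroblast medium. For Pfkm minus Pfkl it was -1.07 and -1.44, and for Ldhb minus Ldha -0.61 and -0.83. At these 3 steps the muscle-type or heart-type form had the lower difference under both media. The order was the opposite for aldolase, where the brain-type Aldoc minus the muscle-type Aldoa was -0.44 and -1.63, and for hexokinase, where the muscle form Hk2 minus Hk1 was 1.19 and 0.96. The 0.96 depends on the Hk1 probe sets, since Hk1 under fibroblast medium was -0.08 in place of -0.50 without its reference probe sets described below. Enolase had no common order, with Eno3 minus Eno1 at 0.21 under myoblast medium and -0.52 under fibroblast medium. Pdk2 minus Pdk1 was -1.52 and -0.97. Both sets of values use the same fresh-medium array.

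**Figure D3:**
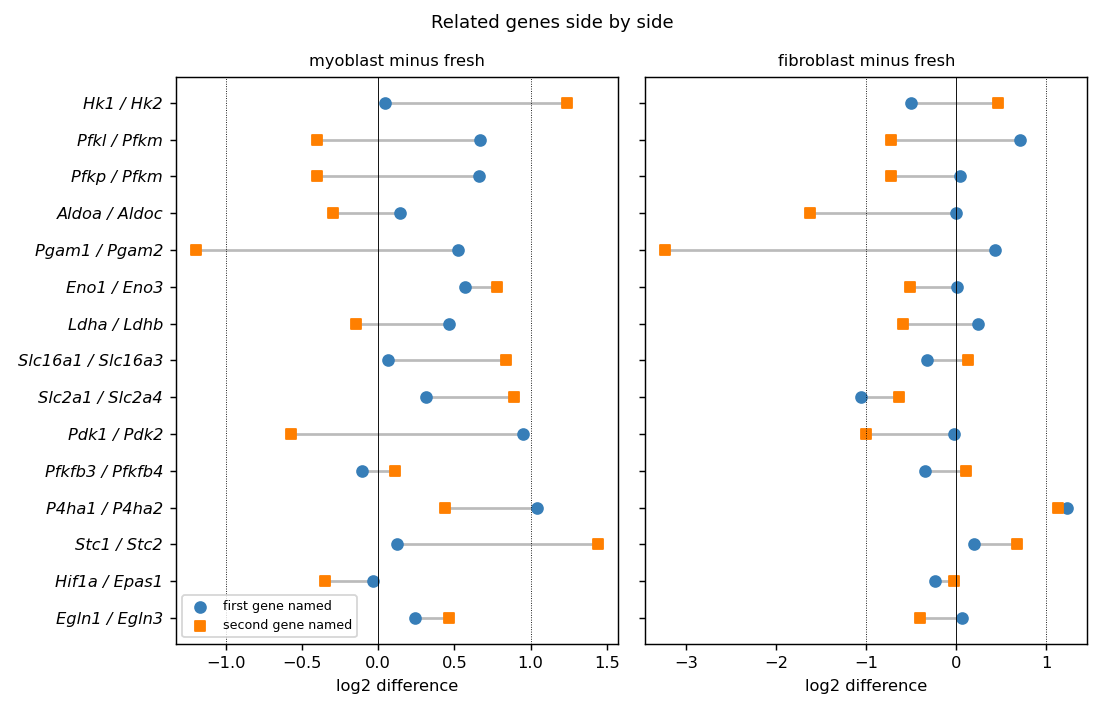
Log2 difference (horizontal axis) of the first gene (blue circle) and second gene (orange square) of 15 related pairs, for myoblast minus fresh medium (left) and fibroblast minus fresh medium (right). Dotted lines mark 2-fold and the horizontal scales of the panels differ. Pgam1 and Pgam2 lie farthest apart in both panels.

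Markers of cardiomyocytes and of other cell types differed between the same arrays. Centring removes their level, so the arrays show how such markers differed and not whether a cell type was present. Of 9 measured cardiomyocyte markers, 3 were at least 2-fold lower and 0 were 2-fold higher under fibroblast medium (median -0.73), with Myh6, a myosin heavy chain of heart muscle, at -2.11, the calcium release channel gene Ryr2 at -1.23 and Tnni3, cardiac troponin I, at -1.09. Another 3 were above 0, with the slow myosin gene Myh7 highest at 0.72. Under myoblast medium the same markers had a median of -0.16, from -0.38 to 1.43. The muscle creatine kinase Ckm, read from the skeletal muscle list, was at -0.94 under myoblast medium and -1.71 under fibroblast medium, where the other 5 measured genes of that list lay between -0.20 and -0.04. Among 10 markers of macrophages and leukocytes, 8 were past 2-fold on the higher side under fibroblast medium (median 1.52) and 0 under myoblast medium (median -0.54). Endothelial markers were at least 2-fold lower for 8 of 9 genes under fibroblast medium and for 4 of 9 under myoblast medium. Fibroblast markers had medians of -0.07 and -0.13. Under fibroblast medium 1 of them was past 2-fold on each side, Thy1 at 1.69 and Pdgfra at -1.48. Under myoblast medium all 8 were below 0, with Pdgfra at -1.42. Of all genes, 4.26% were at least 2-fold higher and 2.6% lower under fibroblast medium, and 1.35% and 0.844% under myoblast medium. None of the 10 macrophage, 9 endothelial or 9 cardiomyocyte markers read 0 on all arrays. In bulk RNA, fewer cells of a type and less RNA per cell cannot be told apart, and the part of these cell markers in the glycolytic differences was not tested.

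As means over their probe sets, none of the 4 measured genes of the oxygen-sensing machinery reached 2-fold or the size of the largest control difference under either medium. Hif1a, the inducible alpha subunit, differed by -0.03 under myoblast medium and -0.24 under fibroblast medium. Epas1, the alpha subunit typical of endothelium, differed by -0.35 and -0.03. The Epas1 value averages a probe set at -0.70 under myoblast medium and another with no value on any array. Alone, the first exceeded in size the largest control difference of 0.66. Egln1, the main prolyl hydroxylase, differed by 0.24 and 0.07. Egln3, a prolyl hydroxylase that HIF itself induces, read 0.00 in fresh medium, 0.46 in myoblast medium and -0.41 in fibroblast medium. HIF is controlled mainly through protein stability, which an expression array does not measure.

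The 10 genes listed as HIF targets had a median difference of 0.57 under myoblast medium and 0.65 under fibroblast medium. In each case 8 of 10 were above 0, against 39.0% and 40.96% of all genes, of which 2953 and 2261 were at exactly 0. At least 2-fold higher were 4 of them under each medium, but not the same 4. The share of all genes past that threshold was 1.35% under myoblast medium and 4.26% under fibroblast medium. Mgarp, which encodes a mitochondrial protein induced by hypoxia, read -2.02 in fresh medium, 0.00 in myoblast medium and 0.03 in fibroblast medium. P4ha1, a catalytic subunit of collagen prolyl hydroxylase, read -1.04, 0.00 and 0.19. Both were more than 2-fold higher under either medium, and both results rest on 1 low value in fresh medium, since the conditioned media differed by only 0.03 and 0.19 in size. Each of these genes has 1 probe set.

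Another 4 HIF targets were past 2-fold against fresh medium under 1 of the media. Between the conditioned media only Ankrd37 (1.46) exceeded the largest control difference of 1.02 in size. Ddit4 (-0.57) and P4ha2 (-0.69) were smaller than that but lay below the lowest control transcript, at -0.48. Ankrd37, an ankyrin-repeat gene with strong hypoxia induction, read 0.00 in fresh medium, 1.29 in myoblast medium and -0.17 in fibroblast medium. Stc2, a secreted stanniocalcin that the amino acid response factor ATF4 also induces, read -0.67, 0.77 and 0.00. Myoblast medium was highest for both, 2.44-fold and 2.72-fold above fresh medium. Ddit4, an inhibitor of mTOR signalling that ATF4 and glucocorticoids can also induce, read -0.66, 0.00 and 0.57. P4ha2, the other collagen prolyl hydroxylase subunit here, read -0.44, 0.00 and 0.69 as the mean of 2 probe sets. For Ddit4 and P4ha2 fibroblast medium was highest, 2.35-fold and 2.20-fold above fresh medium. The P4ha2 probe sets differed from fresh medium by 1.43 and 0.85 under fibroblast medium, so 1 alone passed 2-fold, and by 0.88 and 0.00 under myoblast medium. The second of them had a value on 1 array only.

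The remaining targets stayed under 2-fold. Bhlhe40, a transcriptional repressor, was higher by 0.48 and 0.62. Ndrg1, a stress-response gene, ran in opposite directions at -0.28 and 0.35. Adm, the vasodilator adrenomedullin, differed by -0.02 and -0.11, and Stc1, the other stanniocalcin, by 0.13 and 0.20, although both are well-known HIF targets.

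Promoter sequences were set beside these values because HIF acts through a short DNA element. The 250 bases before the annotated start were searched on both strands for ACGTG and GCGTG, the core of the HIF site, in RefSeq promoters of rat assembly GRCr8. Entries existed for 37 of the 41 listed genes, Pkm among them, some with several starts, 41 promoters in all. At least 1 core was present in 26 of these 41 promoters (63.4%) and in 6 of 8 promoters of HIF targets (75%), against 36.7% of all 33469 promoters of that length. The palindrome CACGTG, which contains ACGTG on both strands, was found in 7 of the 41 and in 5.59% of all. TGATGNAAN, a C/EBP-ATF composite site, was found in 0 of the 41 and in 3.38% of all promoters. A count of 0 among 41 is close to that share, and only 250 bases were searched. A match is a string of letters and not a shown binding site.

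Shown are the 250 bases before the start of the 5 HIF targets that were past 2-fold against fresh medium and held a core match, and of Pgam2, which had the largest difference and no core match. They are printed 5′ to 3′ along the gene, with the core matches of either strand in capitals. Mgarp lies at chr2:137590295-137590544 (minus strand), P4ha1 at chr20:27844796-27845045 (plus), P4ha2 at chr10:38743644-38743893 (plus), Ddit4 at chr20:28437038-28437287 (minus), Ankrd37 at chr16:53001257-53001506 (plus) and Pgam2 at chr14:84897875-84898124 (minus).
Mgarp: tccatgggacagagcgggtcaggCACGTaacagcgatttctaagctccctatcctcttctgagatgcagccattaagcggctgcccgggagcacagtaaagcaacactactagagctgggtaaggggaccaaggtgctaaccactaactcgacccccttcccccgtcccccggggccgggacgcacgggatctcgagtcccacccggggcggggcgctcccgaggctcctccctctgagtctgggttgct
P4ha1: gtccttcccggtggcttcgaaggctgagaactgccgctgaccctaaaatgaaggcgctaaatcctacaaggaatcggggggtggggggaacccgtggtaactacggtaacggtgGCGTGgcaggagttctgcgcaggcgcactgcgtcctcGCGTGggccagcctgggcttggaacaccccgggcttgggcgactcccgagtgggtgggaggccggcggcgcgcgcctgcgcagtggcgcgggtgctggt
P4ha2: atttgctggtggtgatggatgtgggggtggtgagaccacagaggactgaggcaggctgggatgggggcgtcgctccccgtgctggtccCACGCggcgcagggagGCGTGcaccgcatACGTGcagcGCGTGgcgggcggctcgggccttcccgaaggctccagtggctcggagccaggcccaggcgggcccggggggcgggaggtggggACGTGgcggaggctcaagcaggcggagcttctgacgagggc
Ddit4: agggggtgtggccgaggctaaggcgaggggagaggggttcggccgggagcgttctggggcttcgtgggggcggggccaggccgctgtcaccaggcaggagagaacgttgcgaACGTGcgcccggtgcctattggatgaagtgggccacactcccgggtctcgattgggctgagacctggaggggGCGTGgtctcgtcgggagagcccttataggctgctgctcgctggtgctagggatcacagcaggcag
Ankrd37: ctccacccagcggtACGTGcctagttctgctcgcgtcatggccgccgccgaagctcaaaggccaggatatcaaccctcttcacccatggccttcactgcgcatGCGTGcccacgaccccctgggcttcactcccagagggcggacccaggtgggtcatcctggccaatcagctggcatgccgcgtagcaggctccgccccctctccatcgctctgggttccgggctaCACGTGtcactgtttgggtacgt
Pgam2: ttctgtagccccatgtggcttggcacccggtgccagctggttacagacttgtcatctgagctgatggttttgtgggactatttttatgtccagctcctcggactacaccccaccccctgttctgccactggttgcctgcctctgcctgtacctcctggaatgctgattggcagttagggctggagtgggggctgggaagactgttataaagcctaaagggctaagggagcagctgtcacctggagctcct

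P4ha2 held 5 core matches and Ankrd37 held 4, of which 2 overlap in CACGTG from 23 to 18 bases before the start. P4ha1 and Ddit4 held 2 each, and Mgarp held 1 on the reverse strand, 227 to 223 bases before the start. Mgarp had the largest difference of these 5 genes. Stc2 had no core match in this window and was 2.72-fold higher under myoblast medium, and Slc2a1 had 4 matches and was 2.09-fold lower under fibroblast medium. Whether the number of matches goes with the size of the differences was not tested.

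Further genes of the pathway were read from the same 3 arrays, in lists also chosen with earlier results known. They are therefore not an independent check on the patterns above. Of 11 other glycolysis genes, 1 was at least 2-fold higher under myoblast medium and 1 at least 2-fold lower, with a median of 0. The shares of all genes were 1.35% and 0.844%. Eno2, the neuron-type enolase and a HIF target, read -0.71 in fresh medium, 0.92 in myoblast medium and 0.00 in fibroblast medium, 3.10-fold higher in myoblast than in fresh medium. Slc16a7, a high-affinity carrier of pyruvate and lactate, was lower by 1.04 on the log2 scale under myoblast medium and read 0.56 higher under fibroblast medium. None of the 11 reached 2-fold under fibroblast medium, against 4.26% of all genes on the higher side and 2.6% on the lower side.

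Of 34 other HIF targets, 2 (5.88%) were at least 2-fold higher under myoblast medium (median 0.14), against 1.35% of all genes. Under fibroblast medium 4 (11.8%) were at least 2-fold higher (median 0.05), against 4.26% of all genes. None was 2-fold lower in either, against 0.844% and 2.6% of all genes. Bnip3, a mitophagy receptor, read 0.00 in fresh medium, 1.52 in myoblast medium and -0.11 in fibroblast medium, the same order as Ankrd37. Hmox1, haem oxygenase, was higher by 1.01 under myoblast medium. Under fibroblast medium the genes past 2-fold were Plod2, a collagen lysyl hydroxylase, at 1.83, the transcription factor gene Maff at 1.53, the lipoprotein receptor gene Vldlr at 1.45 and the lysyl oxidase gene Loxl2 at 1.01. The 10 other HIF pathway genes had medians of -0.08 and -0.01 with 0 past 2-fold, and the highest was Cited2, a competitor of HIF for its coactivator, at 0.88 under fibroblast medium.

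Txnip and Arrdc4, arrestin-family genes that the glucose sensor MondoA induces, were highest in fresh medium and lowest in myoblast medium. Txnip read 1.03 in fresh medium, -2.64 in myoblast medium and 0.00 in fibroblast medium, and Arrdc4 read 1.001, -2.64 and 0.00. The other 3 genes of that list, which encode the sensors and their partner, differed by at most 0.34 in size under either medium. Glucose and oxygen levels of the media are not among the values analysed here.

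**Figure D4:**
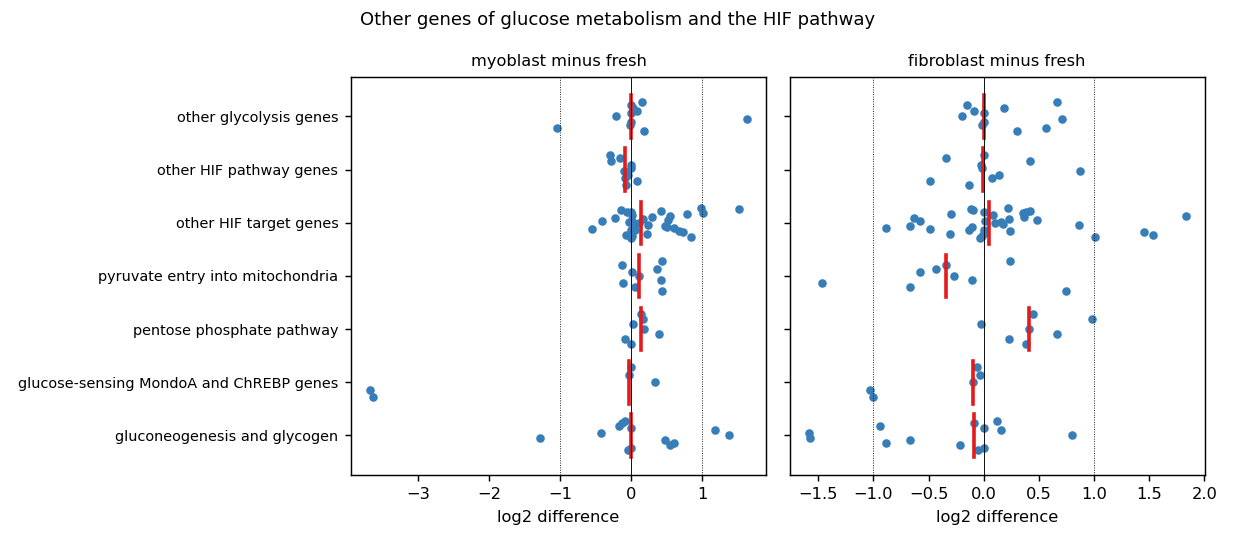
Log2 difference (horizontal axis) of single genes (blue points) and the median of each list (red bars) for 7 lists of further genes of glucose metabolism and the HIF pathway, with myoblast minus fresh medium on the left and fibroblast minus fresh medium on the right. Dotted lines mark 2-fold and the horizontal scales of the panels differ. List medians range from -0.08 to 0.15 under myoblast medium and from -0.34 to 0.41 under fibroblast medium, and the points farthest left in the left panel are Txnip and Arrdc4 at -3.68 and -3.64.

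Hk1 and Gapdh carry probe sets placed at the 5′ end, in the middle and at the 3′ end of their transcripts, which serve as a guide to RNA integrity. For Hk1 the fibroblast minus fresh difference was -1.13 at the 5′ end, -0.95 in the middle and -0.28 at the 3′ end. A further Hk1 probe set gave -0.17 and the fifth had no value on any array, so without the probe sets placed in this way the Hk1 difference was -0.08 in place of -0.50 (an alternative added once the values were known). Gapdh showed no such gradient, at -0.03, -0.03 and -0.04, and beta-actin gave -0.03, 0.02 and 0.19. Under myoblast medium Hk1 differed by 0.08, 0.10 and 0.08. How far the 5′ signal reflects transcript form or RNA integrity was not tested.

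**Figure D5:**
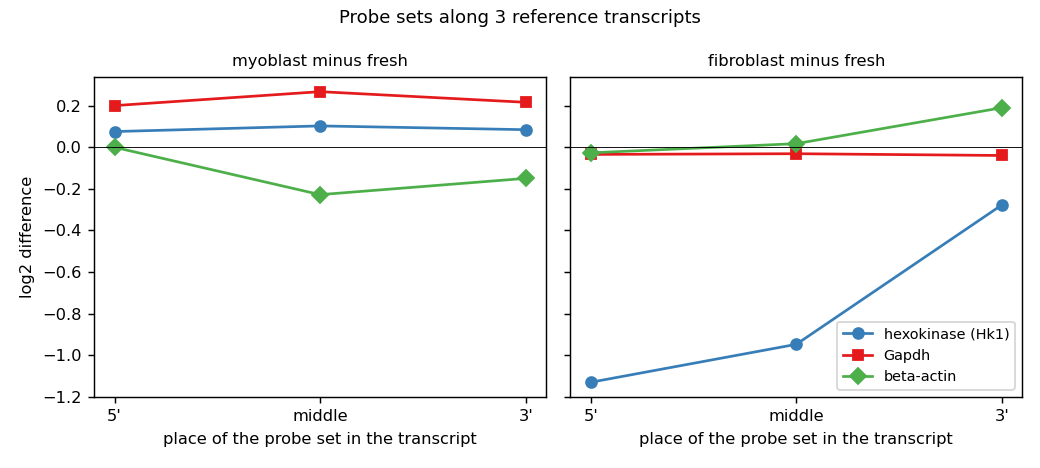
Log2 difference (vertical axis) of the probe sets at the 5′ end, middle and 3′ end (horizontal axis) of the Hk1, Gapdh and beta-actin transcripts, for myoblast minus fresh medium (left) and fibroblast minus fresh medium (right), with 1 probe set per point. Hk1 is lowest at the 5′ end in the right panel, at -1.13 against -0.28 at the 3′ end, while Gapdh stays within -0.04 and -0.03.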

How the data were processed

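Total RNA of 3 cultures was hybridised to 1 Affymetrix 3' expression array each, per the labels' protocols. The deposited values are log2 expression made with RMA (background subtraction, equalised array distributions and a summary of each probe set), per the submitters' processing notes. The software that ran it is not given in the sources used here. Among the deposited probe sets, 17117 of 31099 had values on 2 arrays, always of opposite sign, and none on 3, so values were taken as centred on the middle array and blanks were read as 0. The log base is taken from RMA.

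Of the probe sets, 20832 had 1 gene symbol, 436 several and 9831 none. Symbols were updated through Entrez IDs with RefSeq's GRCr8 gene table, which matched 20764. The 40 measured members had 64 probe sets, of which 54 had 2 values, 5 had 1 and 5 had none. Probe sets of 1 symbol were averaged per gene, with no filter on low values. Differences between arrays were counted at 2-fold, with no test. Named genes are all members, and from the other lists and the markers those past 2-fold in any comparison or largest in either direction, though not every such gene is printed. The members and lists were chosen with earlier results of these data known. Counting was tested on simulated data. Python 3.11.15, NumPy 2.4.6, pandas 2.3.3 and Matplotlib 3.10.9 were used.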

Additional observations from a re-analysis of the deposited data

Results flagged for a closer look

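Members with opposite signs under the conditioned media and at least 2-fold between them were Slc2a4 (1.52 higher in myoblast than in fibroblast medium), Ankrd37 (1.46), Slc2a1 (1.37) and Eno3 (1.29). Against fresh medium these genes stood at 0.89 and -0.63, 1.29 and -0.17, 0.31 and -1.06, and 0.78 and -0.51 for myoblast and fibroblast medium. With 1 array per medium the differences were not tested. They depend on the scaling: with the arrays centred on the poly-A controls, all 4 were below 2-fold between the media (Slc2a4 0.91, Ankrd37 0.85, Slc2a1 0.76 and Eno3 0.67), Slc2a1 under myoblast medium was at -0.03 and Ankrd37 under fibroblast medium at 0.10.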

How the results depend on the processing

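Counts of members at least 2-fold higher under myoblast medium (5), higher under fibroblast medium (4) and higher in myoblast than in fibroblast medium (6) became 12, 7 and 13 at 1.5-fold, against 3.77%, 9.09% and 6.65% of all genes, and 1 each at 3-fold, against 0.38%, 1.84% and 0.591%. Counts of lower members (1, 3 and 0) became 0 under myoblast medium at 3-fold (0.148% of all genes), 8 under fibroblast medium at 1.5-fold (6.97%), and 2 between the media at 1.5-fold (8.34%). With the probe set of widest range per gene, 6 members were 2-fold lower under fibroblast medium (3.57% of all genes), since Hk1, Pfkm and Pdk2 passed as well. In alternatives chosen after seeing the data, centring on the poly-A controls gave 2 higher members under myoblast medium (0.535% of all genes) and a median of 0.0229, and between the media 1 higher (0.57%), 3 lower (12.9%) and a median of -0.21. Centring on the hybridisation controls gave 1 higher (2.53%) and 7 lower members (6.15%) under fibroblast medium and 10 higher between the media (4.52%). These centrings shift every gene of an array alike. Taking the median over probe sets, dropping cross-hybridising ones, centring on array medians, only probe sets with 2 values and symbols as annotated kept all 6 counts within 1.5 times. No member past 2-fold reversed its sign under any setting tried. Signal over background is unknown after centring. No paired analysis was possible because each medium has 1 array and the labels carry no replicate numbers.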

Other observations

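Genes that store and release glycogen differed by form. Pygb, the brain-type glycogen phosphorylase, read 1.28 in fresh medium, 0.00 in myoblast medium and -0.30 in fibroblast medium, and Pygm, the muscle type, read 0.42, 0.00 and -1.17. Pygl, the liver type, was lowest in fresh medium, at -0.80 against 0.57 and 0.00. The glycogen synthase gene Gys1 and the branching enzyme gene Gbe1 were higher in myoblast than in fibroblast medium by 1.15 and 1.49, with fresh medium between them. Of the 13 measured genes of gluconeogenesis and glycogen, 2 were at least 2-fold higher under myoblast medium (Pygl and Pck2, a mitochondrial enzyme that forms phosphoenolpyruvate, at 1.19) and 1 was 2-fold lower. Under fibroblast medium 0 were higher and 2 lower. The shares of all genes were 1.35% higher and 0.844% lower under myoblast medium, and 4.26% and 2.6% under fibroblast medium.

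The pentose phosphate pathway branches from glycolysis and supplies NADPH. Its 7 measured genes had a median of 0.15 under myoblast medium and 0.41 under fibroblast medium, with 0 past 2-fold in either and Pgd, a dehydrogenase of the pathway, highest at 0.98 under fibroblast medium. Genes for the entry of pyruvate into mitochondria had medians of 0.12 and -0.34 over 9 genes, and Pdk4, a pyruvate dehydrogenase kinase induced by fatty acids, was lowest at -1.47 under fibroblast medium, against -0.12 under myoblast medium.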
